A study of Mus musculus with 70 samples.

Results

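The 10 neuronal immediate early genes described here are Fos, Fosb, Jun, Junb, Egr1, Egr2, Arc, Npas4, Nr4a1 and Ier2. They were chosen by name as genes that neuronal activity induces, and all 10 were found among the 50789 genes of the deposited count table. The study sequenced RNA of knockout mice for 1 isoform of the transcriptional repressor Capicua, the short one in Cic-S-KO and the long one in Cic-L-KO, with littermate wild types (WT). The brain groups were used here, at 12 weeks of age: WT cortex with 8 samples, Cic-S-KO cortex with 7, Cic-L-KO cortex with 8, and the same genotypes and numbers in cerebellum. WT samples were littermates of both lines, pooled by the submitters, and the labels do not assign a WT sample to a line. The labels name no strain, promoter or Cre driver, no stimulus or behaviour before the tissue was taken, and no time of day.

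Immediate early genes are transcribed within minutes of a stimulus and need no new protein synthesis. In neurons, calcium entry at synapses and channels activates kinases that act on factors already sitting at their promoters, among them CREB at cAMP response elements and SRF with its ternary complex partners at CArG boxes. The RNAs are unstable, so a raised level is short-lived. Fos and Fosb encode Fos partners of the AP-1 transcription factor, and Jun and Junb its Jun partners. Egr1 and Egr2 encode zinc finger transcription factors. Npas4 encodes a helix-loop-helix factor of neurons that responds to calcium, Nr4a1 an orphan nuclear receptor, Ier2 a nuclear protein of the early growth response, and Arc a cytoskeletal protein that moves to active synapses and lowers their AMPA receptors.

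In the GENCODE annotation of GRCm38, Fos lies at chr12:85473890-85477273, Fosb at chr7:19302696-19310051, Jun at chr4:95049034-95052222, Junb at chr8:84974484-84978718, Ier2 at chr8:84661331-84662852, Egr2 at chr10:67535475-67542188, Arc at chr15:74669083-74672570, Nr4a1 at chr15:101254269-101274795 and Npas4 at chr19:4984355-4990316. The members are compact genes. The median span of all 10 was 4699 bases (1522 in Ier2 to 20527 in Nr4a1), against 24446 bases over the 14445 protein-coding genes tested here. Their median exon length of 3294 bases was closer to the 4349 bases of those genes. Jun overlaps its antisense gene Junos and Junb overlaps Prdx2 on the opposite strand. The sources used here do not state whether counting used strand, so a part of the reads given to Jun and Junb may belong to those neighbours.

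RefSeq promoter windows (GRCm38.p6) were found for 7 members: Fos, Fosb, Jun, Junb, Egr2, Npas4 and Nr4a1. The 250 bases before the start site are shown for Fos, for Junb and Nr4a1, the members with a window whose RNA correlated most with that of Fos in cortex, and for Jun, which correlated with it least. The windows, read 5′ to 3′ on the gene's strand, are chr12:85473640-85473889 (plus strand) for Fos, chr8:84978749-84978998 (minus) for Junb, chr15:101266596-101266845 (plus) for Nr4a1 and chr4:95052223-95052472 (minus) for Jun, and none of the 4 overlaps an annotated exon. Capitals mark TGACG, the core of the cAMP response element, or its reverse complement CGTCA, and in Fos also the Capicua octamer TGAATGGA, found there as its reverse complement TCCATTCA.
Fos: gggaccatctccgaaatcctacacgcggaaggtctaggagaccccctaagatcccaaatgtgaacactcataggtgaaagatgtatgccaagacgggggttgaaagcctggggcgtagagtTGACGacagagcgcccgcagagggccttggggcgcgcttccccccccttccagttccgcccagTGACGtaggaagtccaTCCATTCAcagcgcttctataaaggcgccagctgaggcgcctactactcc
Junb: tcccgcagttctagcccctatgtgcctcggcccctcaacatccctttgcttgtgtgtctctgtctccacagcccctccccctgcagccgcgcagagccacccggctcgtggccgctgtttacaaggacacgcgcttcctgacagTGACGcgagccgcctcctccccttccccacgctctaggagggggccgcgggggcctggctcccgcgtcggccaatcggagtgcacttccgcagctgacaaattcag
Nr4a1: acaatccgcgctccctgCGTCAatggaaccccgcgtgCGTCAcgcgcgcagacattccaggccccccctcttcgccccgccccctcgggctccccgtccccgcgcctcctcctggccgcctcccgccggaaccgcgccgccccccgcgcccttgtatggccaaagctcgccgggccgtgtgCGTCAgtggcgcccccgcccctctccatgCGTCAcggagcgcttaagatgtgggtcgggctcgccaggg
Jun: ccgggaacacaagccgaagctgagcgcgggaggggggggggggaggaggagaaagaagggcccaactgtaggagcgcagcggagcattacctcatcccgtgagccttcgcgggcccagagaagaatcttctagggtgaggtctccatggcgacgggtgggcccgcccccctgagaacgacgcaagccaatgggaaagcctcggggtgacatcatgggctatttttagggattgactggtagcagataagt

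Of the 7 members, 6 held the core in at least 1 window, all but Jun, against 19.8% of 27025 genes counted the same way. By window it was in 8 of 11, since Egr2 has 5 windows, against 17.8% of 32851 windows of 250 bases. The Npas4 window lay wholly within annotated exons (250 bases). Exons covered 6 bases of the Fosb window and at most 61 of an Egr2 window. Nr4a1 held 4 copies, at 233, 213, 69 and 40 bases before its start, Fos held 2, at 129 and 66 bases, and Junb held 1 at 106 bases. The full palindrome TGACGTCA was in none of the 7 (1.77% of genes) and the AP-1 site TGANTCA in none (7.82%). Among the 7, a CArG box was in Egr2 alone (1.62%). Bases farther than 250 from the start were not searched, so a member may hold a CArG box outside its window. Arc, Egr1 and Ier2 had no window. The Capicua octamer TGAATGGA was in Fos alone (1.18%), 50 bases before the start, and the other octamer, TGAATGAA, in none (1.25%). Both strands were searched, and the full cAMP response element contains the core. Only exact letters counted, and the Jun window holds tgacatca, which differs from TGACGTCA in 1 letter. A match is a run of letters and not a measured binding site.

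RNA was counted per gene. The 46 brain libraries held 20440799 to 32548951 reads, on average 25710878 ± 2837807 (SD), and all of them carried the label of batch 2. Levels are CPM (the count scaled to a fixed library size), normalised by TMM over the brain samples. Counts were summed over the isoforms of Cic, so the Cic counts check neither knockout, and genotypes are those of the labels. These markers of each region were higher in that region. The 4 cerebellar granule neuron markers together reached 3299 to 4048 CPM in WT cerebellum and 19.5 to 27.3 in WT cortex. The 4 cortical excitatory neuron markers counted together reached 1861 to 2073 CPM in WT cortex and 560 to 667 in WT cerebellum. Among them Tbr1 and Emx1, at 169.1 ± 11.4 and 21.5 ± 2.42 CPM in WT cortex, were below 1 CPM in WT cerebellum. Choroid plexus markers varied widely within groups, from 19.1 to 585.3 CPM in WT cortex and from 15.4 to 2857 in WT cerebellum. Y-linked genes were expressed in library numbers 1 to 4 and not in 5 to 8 of every genotype. The labels do not say that samples of a group came from separate animals, so p-values measure the spread between these samples only.

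Some libraries were low in most early genes at once. WT library number 4 had all 10 members below their WT mean in cortex, with a median deviation of -1.23 on the log2 scale, and 8 of 9 below it in cerebellum (-0.57). Its Fos was 10.7 CPM in cortex and 4.61 in cerebellum, and its Arc was 36.8 CPM in cortex, each the lowest of the WT group. Cic-L-KO library 3 was below its group mean in 10 of 10 members in cortex (-0.46) and 9 of 9 in cerebellum (-0.27), and Cic-S-KO library 7 in 10 of 10 (-0.23) and 8 of 9 (-0.35). WT library 1 (-0.39 and -0.51) and Cic-S-KO library 1 (-0.40 and -0.67) were below it in 9 of 10 and 8 of 9. By Dixon's criterion on linear CPM, WT library 4 lay apart from its group in no single member. The criterion was not applied to log2 deviations, where its cortex Fos was at -2.10 and the next lowest WT library at -0.31. Comparisons with WT are also given without WT library number 4, an alternative added after the data were seen. It was picked for its low early genes, so leaving it out raises most WT means. Counts without it are thus no separate support for a decrease.

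The early genes were mostly higher in WT cortex than in WT cerebellum. Per kilobase of exon, which allows genes to be compared, Arc (113.1 ± 56.7 CPM per kb, SD, n = 8) and Egr1 (109.5 ± 31.8) led in WT cortex, followed by Nr4a1 (47.5 ± 17.1), Junb (39.4 ± 16.6), Fos (22.6 ± 10.4) and Jun (16.9 ± 2.18). Ier2 (8.12 ± 2.46), Fosb (5.97 ± 1.89), Npas4 (5.34 ± 2.69) and Egr2 (0.555 ± 0.399) were lowest. Neighbours in that order overlapped over the libraries except Jun and Ier2, and Npas4 and Egr2. In WT cerebellum, Fos (20.1 ± 13.2 CPM per kb) and Jun (19.0 ± 1.73) led, ahead of Ier2 (11.7 ± 2.57), Nr4a1 (10.6 ± 4.68), Egr1 (7.80 ± 1.56), Arc (6.04 ± 0.593) and Junb (4.19 ± 1.28), with Npas4 (0.973 ± 0.665) and Fosb (0.445 ± 0.270) at the low end. There the ranges of Jun and Ier2, and of Junb and Npas4, did not overlap.

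Of the 10 members, 8 differed between WT cortex and WT cerebellum in edgeR's quasi-likelihood test, 7 higher in cortex and 1 lower, where 73.5% of all 18032 genes tested differed, 35.4% as higher and 38.2% as lower. Egr2 is among the 7. It passed the low-count filter of the fit of both regions through cortex alone, so its call was set in advance. Arc had a log2 fold change of 4.23 (SE 0.305, adjusted p = 3.93e-16, edgeR), from 345.7 ± 173.3 CPM in cortex to 18.5 ± 1.81 in cerebellum, and no library of one region reached the range of the other. Egr1 was higher by 3.81, Fosb by 3.73 and Junb by 3.23 on the log2 scale, again without overlap, which held for 44.3% of all genes. Npas4 (2.44) and Nr4a1 (2.16) were higher with some overlap, and Ier2 was lower in cortex (-0.53, SE 0.161, adjusted p = 0.00308, edgeR). Fos, at 53.2 ± 24.4 CPM in cortex and 47.2 ± 31.0 in cerebellum, gave 0.17 (95% interval -0.60 to 0.93, adjusted p = 0.703, edgeR), and Jun gave -0.16 (-0.33 to 0.00076, adjusted p = 0.0679). In bulk tissue, fewer cells of a type and less RNA per cell cannot be told apart.

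Egr2, which also directs myelination by Schwann cells in nerve, was near absent from the cerebellum. All 8 WT cerebellum libraries had 0 Egr2 counts, while the WT cortex libraries held 342 counts in all, from 0.0397 to 4.62 CPM with a median of 1.79. Against a floor of 3 counts over the whole WT cerebellum group, Egr2 was at least 129.7-fold higher in WT cortex. Cic-S-KO had 310 counts in cortex and 1 in cerebellum, and Cic-L-KO 404 and 1, so Egr2 did not pass the filter on low counts in the cerebellum and was tested in cortex and in the fit of both regions.

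**Figure D1:**
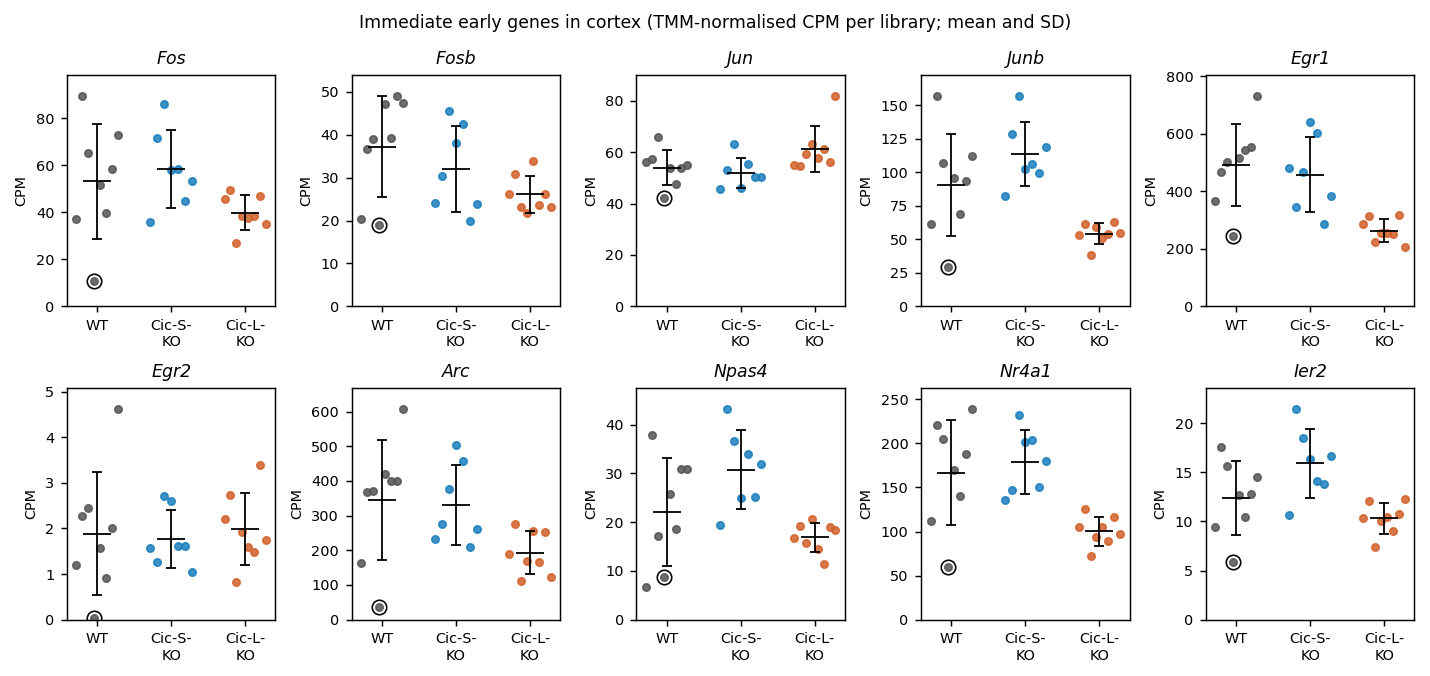
TMM-normalised CPM of the 10 immediate early genes in each cortex library (points), by genotype, with the mean and SD (bars), on linear axes from 0. The ringed point is WT library number 4, and the Cic-L-KO libraries of Junb, Nr4a1 and Egr1 lie between 38.6 and 63.0, 72.3 and 125.7, and 205.2 and 315.8 CPM.

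In the cortex, Cic-L-KO libraries held less Egr1, Junb and Nr4a1 RNA than WT, and no member passed the test between Cic-S-KO and WT. Egr1 ran from 246.1 to 732.2 CPM in WT (median 509.0), from 286.6 to 639.9 in Cic-S-KO (median 467.1) and from 205.2 to 315.8 in Cic-L-KO (median 254.2). Cic-L-KO libraries 8 (205.2) and 3 (222.5) were below the lowest WT library, number 4, and all 8 were below every other WT library. Egr1 fell by 0.89 on the log2 scale in Cic-L-KO against WT (SE 0.188, adjusted p = 0.000667, edgeR).

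Junb ran from 29.2 to 157.0 CPM in WT (median 94.9), from 82.5 to 157.3 in Cic-S-KO (median 106.5) and from 38.6 to 63.0 in Cic-L-KO (median 54.3). It was lower in Cic-L-KO than in WT by a log2 fold change of -0.73 (SE 0.227, adjusted p = 0.013, edgeR). Nr4a1 ran from 60.2 to 239.1 CPM in WT (median 178.6), from 135.4 to 232.2 in Cic-S-KO (median 180.0) and from 72.3 to 125.7 in Cic-L-KO (median 100.8), and gave -0.72 for Cic-L-KO against WT (SE 0.208, adjusted p = 0.00803, edgeR). For both genes every Cic-S-KO library was above every Cic-L-KO library, while the WT range covered the Cic-L-KO range, through WT libraries 1 and 4 at its low end.

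These 3 of 10 members passed the threshold in Cic-L-KO cortex, all as lower, where 43.2% of all 16974 genes tested passed, 21.4% as higher and 21.9% as lower. The ranges of all 10 overlapped those of WT, while 13.5% of all genes did not overlap. The share of members called was thus no larger than that of all genes. The median log2 fold change of the 10 was -0.45, with 8 negative, beside 0.011 over all genes. Members vary together over the same libraries, so these signs are not separate observations. Without WT library number 4, which was picked for its low members, the count of members called rose from 3 to 7. Fos (-0.56, adjusted p = 0.0296, edgeR), Fosb (-0.59, adjusted p = 0.0168), Arc (-1.001, adjusted p = 0.00424) and Ier2 (-0.35, adjusted p = 0.0485) were then lower too. Without WT library 1 the count was 5, with Fosb (-0.59, adjusted p = 0.0225) and Arc (-0.93, adjusted p = 0.0478, edgeR) added. With all libraries Fos gave -0.41 (95% interval -0.98 to 0.17, adjusted p = 0.249), Fosb -0.50 (adjusted p = 0.0572), Arc -0.83 (adjusted p = 0.0703) and Ier2 -0.25 (adjusted p = 0.257, edgeR).

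Arc, the synaptic effector of the set, ran from 36.8 to 607.6 CPM in WT cortex (median 385.6), from 208.7 to 503.4 in Cic-S-KO (median 275.2) and from 111.1 to 277.1 in Cic-L-KO (median 178.8). Only WT libraries 1 and 4 were within the Cic-L-KO range or below it. Jun and Egr2 were the members with a positive estimate in Cic-L-KO cortex, Jun at 0.19 (95% interval 0.0083 to 0.37, adjusted p = 0.0843, edgeR) and Egr2 at 0.096 (-0.74 to 0.93, adjusted p = 0.867).

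In Cic-S-KO cortex 0 of 10 members passed, where 6.53% of all genes did, 2.83% as higher and 3.7% as lower. Ier2 alone had an unadjusted p under 0.05 (0.37, SE 0.177, adjusted p = 0.215, edgeR), and DESeq2 also called 0. Of the 10 estimates 5 were positive, and the median was 0.026, beside -0.00087 over all genes. The intervals were wide: Arc spanned -0.84 to 0.72 and Fos -0.45 to 0.73 on the log2 scale. The count stayed 0 without WT library number 4.

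More members passed when the knockouts were compared with each other. In cortex, 6 of 10 members differed between Cic-S-KO and Cic-L-KO, where 33.9% of all genes did (17.4% as higher in Cic-S-KO), and their median log2 fold change was 0.70 beside -0.0038 over all genes. Junb was higher in Cic-S-KO by 1.06 on the log2 scale (SE 0.233, adjusted p = 0.00123, edgeR), Nr4a1 0.83 (SE 0.214, adjusted p = 0.00478), Egr1 0.80 (SE 0.193, adjusted p = 0.00293), Npas4 0.86 (SE 0.283, adjusted p = 0.0226) and Ier2 0.62 (SE 0.178, adjusted p = 0.00889). Junb and Nr4a1 did not overlap between the knockouts, which held for 10.7% of all genes. Jun went the other way, with 51.9 ± 5.99 CPM against 61.2 ± 8.95 in the Cic-L-KO libraries (-0.24, SE 0.0905, adjusted p = 0.0426, edgeR). WT libraries entered this contrast only through the shared estimate of spread. Npas4 lost its call without Cic-S-KO library 3 (0.76, adjusted p = 0.0579), and Jun lost it without any 1 of 8 libraries (Cic-S-KO 1, 3, 5, 7 or 8, Cic-L-KO 4, 6 or 8), with the smallest value at -0.17 (adjusted p = 0.0816, edgeR) without Cic-L-KO library 8.

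**Figure D2:**
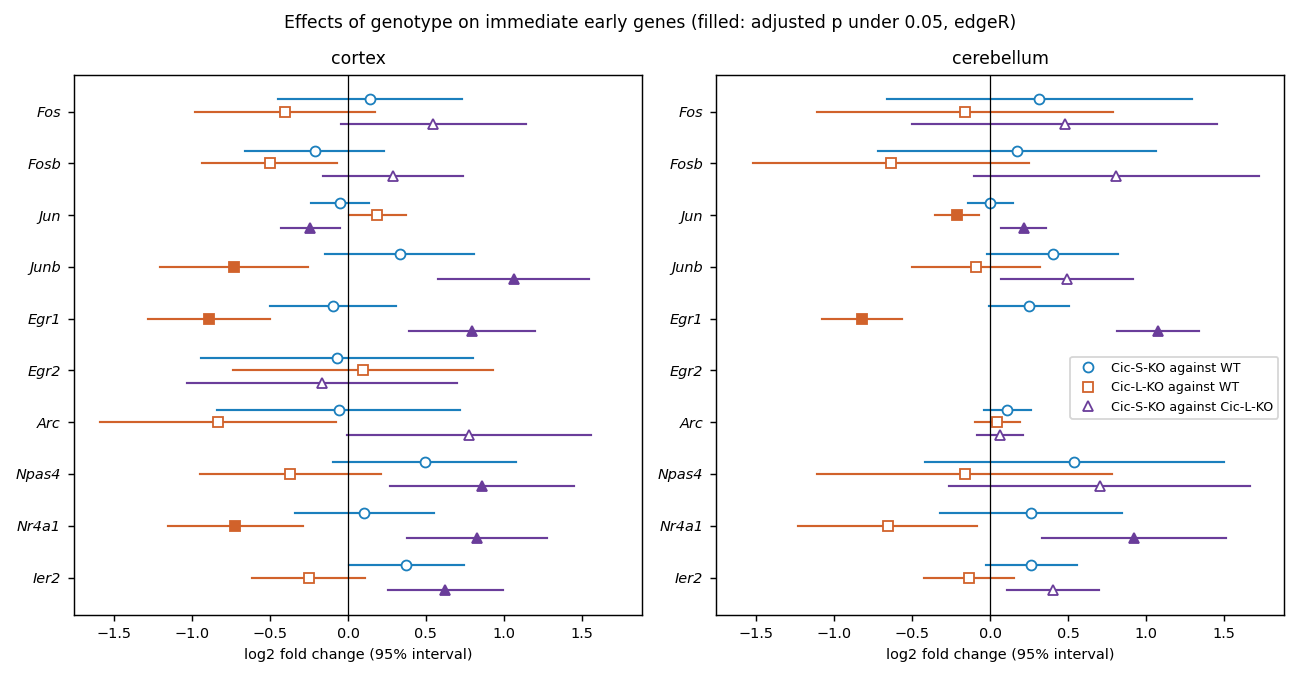
Log2 fold change of each early gene with its 95% interval in cortex (left) and cerebellum (right), with circles for Cic-S-KO and squares for Cic-L-KO against WT, triangles for the knockouts against each other, and filled symbols where the adjusted p (edgeR) was under 0.05. Egr1 is the member whose Cic-L-KO value passed in both regions, at -0.89 and -0.82, and Egr2 was not tested in the cerebellum.

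Markers of cell types moved with these contrasts. In Cic-L-KO cortex all 4 general neuron markers (Rbfox3, Snap25, Syt1, Tubb3) were lower than in WT, with a median log2 fold change of -0.39, and their summed level ran from 3711 to 4450 CPM against 5315 to 5952 in WT. Of the 4 cortical excitatory neuron markers tested, 3 were lower (Slc17a7 -0.38, Tbr1 -0.45, Emx1 -0.39), with a summed level of 1404 to 1646 CPM against 1861 to 2073. Of 3 endothelial markers, Flt1 (0.28) and Cldn5 (0.53) were higher, with sums of 124.6 to 155.3 against 98.9 to 140.7 CPM. In Cic-S-KO cortex 2 of 4 neuron markers, Snap25 (-0.26) and Syt1 (-0.14), were lower, with sums of 4531 to 5067 CPM, and 2 of 4 oligodendrocyte markers were higher, with sums of 4234 to 6247 CPM against 3864 to 5371 in WT. Of 3 fibroblast and meninges markers 2 were lower in Cic-L-KO cortex. Inhibitory neuron markers went the other way there, with 1 of 3 called higher and all 3 estimates positive (sums of 698.8 to 896.8 against 684.6 to 812.6 CPM in WT). Between the knockouts in cortex, all 4 neuron markers (median log2 fold change 0.25), 3 of 4 excitatory neuron and 3 of 4 oligodendrocyte markers (median 0.44) were higher in Cic-S-KO, while 1 excitatory neuron and 2 of 3 endothelial markers were lower (sums of 82.2 to 120.1 against 124.6 to 155.3 CPM). All markers counted as higher or lower passed in edgeR. Of all genes 43.2% passed in Cic-L-KO cortex (21.4% as higher, 21.9% as lower), 6.53% in Cic-S-KO cortex and 33.9% between the knockouts. The part of the markers in the early gene values was not tested.

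**Figure D3:**
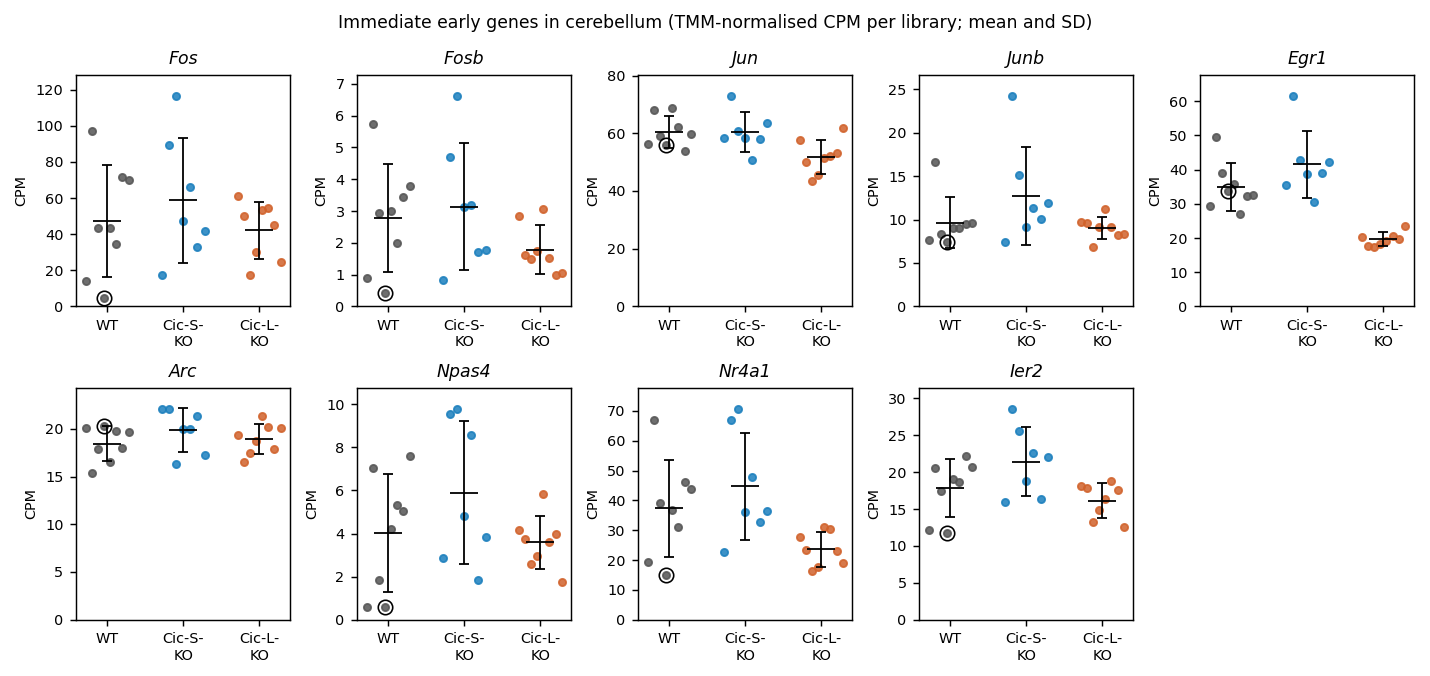
TMM-normalised CPM of the 9 early genes tested in the cerebellum, one point per library, by genotype, with the mean and SD, on linear axes from 0. The ringed point is WT library number 4, and all 8 Cic-L-KO libraries of Egr1 lie between 17.5 and 23.5 CPM, below every WT and Cic-S-KO library.

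In the cerebellum Egr1 was again lower in Cic-L-KO, and there the groups were apart. Egr1 ran from 27.0 to 49.7 CPM in WT (median 33.3), from 30.6 to 61.6 in Cic-S-KO (median 38.9) and from 17.5 to 23.5 in Cic-L-KO (median 19.5). All 8 Cic-L-KO libraries were below every library of the other genotypes, and 3.76% of all genes were without overlap between Cic-L-KO and WT. Egr1 fell by 0.82 against WT (SE 0.123, adjusted p = 6.82e-05, edgeR), and this call, like that in cortex, held when any 1 library was left out.

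Jun, at 60.4 ± 5.52 CPM in WT (n = 8) and 51.9 ± 5.93 in Cic-L-KO (n = 8), was the other member called (-0.21, SE 0.0689, adjusted p = 0.028, edgeR). Its ranges overlapped, from 53.7 to 68.7 CPM in WT and 43.6 to 61.8 in Cic-L-KO, and leaving out any 1 of 5 libraries ended the call (WT 2 or 5, Cic-L-KO 2, 3 or 4), with adjusted p-values from 0.0518 to 0.0661 (edgeR). So 2 of 9 members passed in Cic-L-KO cerebellum, where 21.5% of all 16643 genes did, 10.9% as higher and 10.6% as lower. The members' median was -0.16 beside 0.0038 over all genes, and 8 of 9 estimates were negative. As in cortex, these signs are not separate observations.

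Fos, the member most often used as a marker of active neurons, did not pass between genotypes in the cerebellum. It ran from 4.61 to 97.2 CPM in WT (median 43.2), from 17.3 to 116.8 in Cic-S-KO (median 47.1) and from 17.6 to 61.2 in Cic-L-KO (median 47.8). The 3 groups covered one another, and the interval of the log2 fold change in Cic-L-KO spanned -1.11 to 0.79 (adjusted p = 0.844, edgeR). Nr4a1 gave -0.66 (adjusted p = 0.0974, edgeR), and without WT library number 4 it was called at -0.78 (adjusted p = 0.0383), which made the count 3, as did leaving out WT library 1 (-0.75, adjusted p = 0.0494, edgeR). Arc, which varied widely in cortex, stayed between 15.4 and 22.1 CPM in all 23 cerebellum libraries, with a log2 fold change of 0.047 in Cic-L-KO (-0.098 to 0.19) and 0.11 in Cic-S-KO (-0.041 to 0.26).

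In Cic-S-KO cerebellum 0 of 9 members passed, where 8.23% of all genes did (4.34% as higher, 3.89% as lower), and 0 had an unadjusted p under 0.05 in edgeR. DESeq2 called 0 as well. The ranges of all 9 overlapped those of WT, while 1.16% of all genes did not overlap. All 9 estimates were positive, with a median of 0.26 beside 0.0053 over all genes. The 9 genes vary together over the same libraries, so these signs are not separate observations. Egr1 came nearest to passing (0.25, SE 0.124, adjusted p = 0.221, edgeR), and Jun was at 0.0013.

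Between the knockouts, 3 of 9 members were higher in Cic-S-KO cerebellum than in Cic-L-KO, where 12.4% of all genes differed, 6.06% as higher and 6.38% as lower. Egr1 was 1.07 higher (SE 0.127, adjusted p = 5.02e-06, edgeR) with no overlap, which held for 2.61% of all genes. Nr4a1, with 22.7 to 70.7 CPM in Cic-S-KO and 16.3 to 31.1 in Cic-L-KO, was 0.92 higher (SE 0.284, adjusted p = 0.0368, edgeR), and lost its call without any 1 of 8 libraries (Cic-S-KO 3, 4 or 6, Cic-L-KO 2, 3, 4, 7 or 8), with the weakest value at 0.77 (adjusted p = 0.0977) without Cic-S-KO library 4. Jun was 0.21 higher (SE 0.0713, adjusted p = 0.0483), and leaving out any 1 of 12 libraries ended that call (Cic-S-KO 1, 3, 4, 5, 7 or 8, Cic-L-KO 2 to 7), with the weakest value at 0.16 (adjusted p = 0.142, edgeR) without Cic-S-KO library 3. Without Cic-S-KO library 1 or 7, Ier2 was called too (0.46 and 0.45).

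Neuron markers moved here as well. In the cerebellum 3 of 4 general neuron markers (Snap25, Syt1, Rbfox3) were lower in each knockout than in WT, with sums of 2905 to 3561 CPM in Cic-S-KO, 3072 to 3507 in Cic-L-KO and 3558 to 4098 in WT. All 4 granule neuron markers were lower in Cic-S-KO (median -0.39, sums of 2131 to 3327 against 3299 to 4048 CPM) and 1 of 4, Gabra6 (-0.38), in Cic-L-KO. All 3 inhibitory neuron markers were higher in both knockouts, and all 3 endothelial markers were higher in Cic-L-KO (median 0.55, sums of 106.7 to 135.9 against 75.2 to 96.8 CPM). Of 3 fibroblast and meninges markers 2 were higher in each knockout. Over all genes 8.23% passed in Cic-S-KO cerebellum, 21.5% in Cic-L-KO cerebellum and 12.4% between the knockouts. Between the knockouts 0 of the 4 neuron and 0 of the 4 granule neuron markers passed in edgeR, while 2 of 4 astrocyte, 1 of 3 Purkinje cell and 1 of 3 fibroblast markers were higher in Cic-S-KO and 2 of 3 endothelial markers lower (sums of 66.8 to 110.2 against 106.7 to 135.9 CPM). Their part in the early gene values was not tested.

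An interaction term in the fit of 46 libraries compared each effect between the regions. Same-numbered libraries of the 2 regions entered as separate samples, since the labels do not say what a number marks. The 10 members include Egr2, near absent from the cerebellum, with an SE of 1.12 for Cic-L-KO and 1.37 for Cic-S-KO. For Cic-L-KO, Jun alone passed of 10 members, where 23% of all genes did, 11.5% in each direction. Its log2 fold change in Cic-L-KO was 0.40 more positive in cortex (SE 0.115, adjusted p = 0.0088, edgeR) than in cerebellum, from 54.0 ± 6.95 to 61.2 ± 8.95 CPM in cortex and from 60.4 ± 5.52 to 51.9 ± 5.93 in cerebellum. For Egr1 the 2 effects differed by -0.068 (95% interval -0.54 to 0.40, adjusted p = 0.868, edgeR). Arc (-0.88, adjusted p = 0.105) and Junb (-0.64, adjusted p = 0.144) were more negative in cortex without passing, and without WT library number 4 Arc passed (-1.07, adjusted p = 0.00635, edgeR), a count of 2. With only the cortex library of that number left out the count was 3, with Arc (-1.05) and Junb (-0.77, adjusted p = 0.0339, edgeR). With genotype and library number as a block, Junb (-0.58, adjusted p = 0.033, edgeR) passed beside Jun. For Cic-S-KO 0 of 10 members passed, where 4.5% of all genes did (2.01% as higher, 2.5% as lower), 0 had an unadjusted p under 0.05 in edgeR and DESeq2 called 0.

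The spread between libraries of a group differed by gene and genotype. In cortex the coefficient of variation of Fos was 45.8% in WT, 28.6% among Cic-S-KO libraries and 18.3% among Cic-L-KO libraries, and that of Arc was 50.1%, 35.0% and 32.3%. Without WT library 4 the WT values were 31.5% for Fos and 33.3% for Arc. In cerebellum that of Fos was 65.7% (52.3% without WT library 4), 58.7% and 37.8%, while Arc stayed at 9.81%, 11.5% and 8.44%. Jun ran from 9.13% to 14.6% over the 6 groups, and Junb from 14.1% to 44.2%. The differences in spread between genotypes were not tested.

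Members also rose and fell together from library to library. After the group means were removed, the median correlation over the 45 pairs of members in cortex was 0.73, with 37 pairs over 0.5, from 0.034 (Jun with Egr1) to 0.97 (Fos with Junb). In the cerebellum the median over 36 pairs was 0.52, with 19 over 0.5, from -0.41 (Fos with Arc) to 0.96 (Fos with Nr4a1). Each correlation is over 23 libraries, and members share those libraries and their normalisation.

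**Figure D4:**
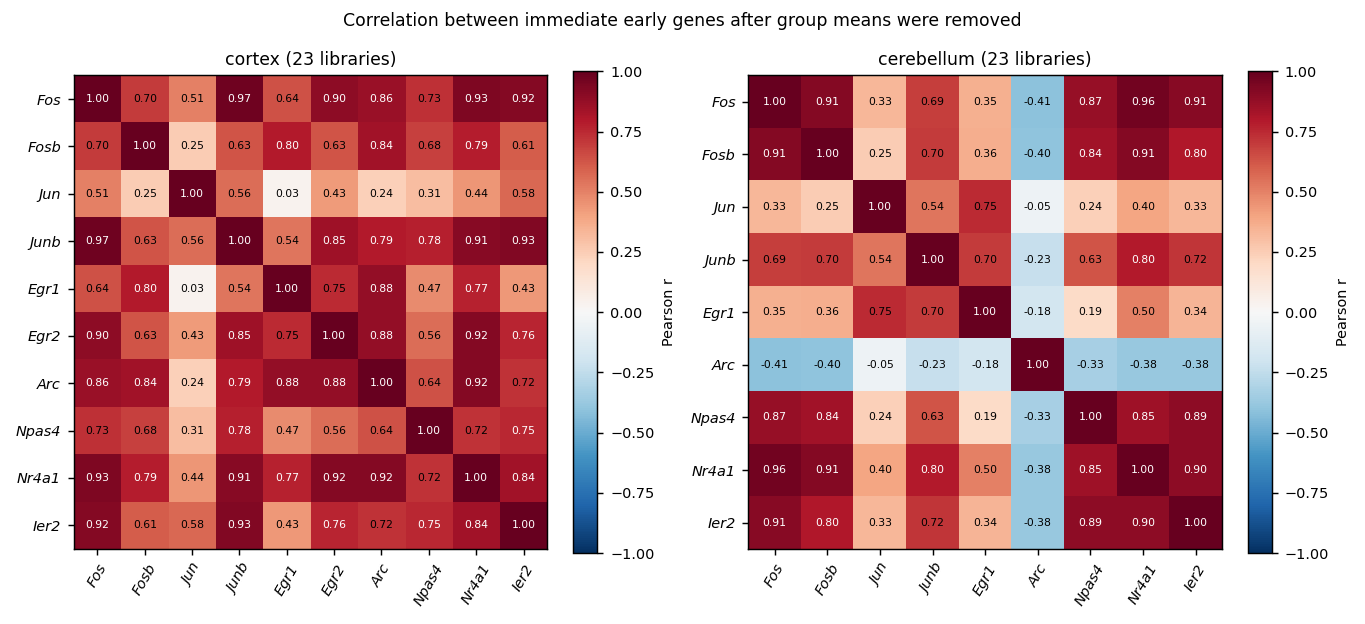
Pearson correlation between early genes over the 23 libraries of cortex (left) and of cerebellum (right) after each group mean was removed, with colours from -1 to 1. In cortex Jun is the palest row, and in cerebellum Arc is negative with every other member while Fos, Fosb, Npas4, Nr4a1 and Ier2 form a block from 0.80 to 0.96.

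Fos, as the reference gene, was correlated with every gene of its region, with permutation within genotype and adjustment over all genes. In cortex 3 of the 9 other members passed, against 0.124% of the 16973 other genes: Junb (r = 0.97, rho = 0.91), Nr4a1 (r = 0.93, rho = 0.86) and Ier2 (r = 0.92, rho = 0.85), each with a permutation p of 1e-05, the smallest that 100000 permutations can give, and an adjusted p of 0.017 for r and 0.0212 for rho. Egr2 (r = 0.90, permutation adjusted p = 0.0611), Arc (r = 0.86, 0.141), Npas4 (r = 0.73, 0.463), Fosb (r = 0.70, 0.317), Egr1 (r = 0.64, 0.699) and Jun (r = 0.51, 0.797) did not pass. WT libraries 2 and 4 lay farthest from the median of Fos. Without them Junb stood at 0.93, Nr4a1 at 0.85 and Ier2 at 0.85, with a permutation adjusted p of 0.0566 each. None of the 3 passed. Their permutation p-values ran from 1e-05 to 3e-05. That of Junb, 1e-05, is the smallest possible here, so a stronger correlation could not have lowered its adjusted p. Without WT library 4 alone Nr4a1 lost its call (0.85, permutation adjusted p = 0.0509).

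In cerebellum 4 of the 8 other members passed, against 0.156% of 16642 genes: Nr4a1 (r = 0.96, rho = 0.97), Fosb (r = 0.91, rho = 0.89), Ier2 (r = 0.91, rho = 0.94) and Npas4 (r = 0.87, rho = 0.88), each with a permutation p of 1e-05 and an adjusted p of 0.0151 for r and 0.0185 for rho. All 4 passed again without the 2 libraries farthest from the median, WT 4 and Cic-S-KO 1, with r from 0.84 to 0.96 and permutation adjusted p-values of 0.0208 and 0.0333. Junb passed by rho (0.83, permutation adjusted p = 0.0277) and not by r (0.69, 0.142), and Egr1 (0.35, 0.709), Jun (0.33, 0.688) and Arc (-0.41, 0.604) did not pass.

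The labels give cortex and cerebellum samples of a genotype the same library numbers, without saying whether a number marks one animal. All 23 same-numbered pairs had the same Y-linked class in both regions. That class followed the library number in every genotype. The match was thus set by the numbering and cannot tell whether same-numbered samples share an animal. The deviations of Fos from its group mean went together across the regions. In WT, library 2 was highest in both (89.7 CPM in cortex, 97.2 in cerebellum) and library 4 lowest in both (10.7 and 4.61). In Cic-S-KO, library 4 was highest in both (86.3 and 116.8 CPM) and library 1 lowest in both (36.1 and 17.3), and in Cic-L-KO library 3 was lowest in both (27.0 and 17.6) while the highest was library 2 in cortex (49.5) and library 1 in cerebellum (61.2).

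Over the 23 pairs the correlation of Fos between cortex and cerebellum was r = 0.93 (permutation p = 1e-05, adjusted p = 0.00453 over 15840 genes) and rho = 0.87 (permutation p = 1e-05, adjusted p = 0.0072). Among all genes the median r was 0.085, and 0.928% passed. Within the genotypes the correlation of Fos was 0.95 in WT (exact permutation p = 0.000198, n = 8; rho = 0.88, exact p = 0.00724), 0.98 in Cic-S-KO (exact permutation p = 0.000198, n = 7; rho = 1.00, exact p = 0.000397) and 0.80 in Cic-L-KO (exact permutation p = 0.0154, n = 8; rho = 0.57, exact p = 0.151). Without the 2 pairs farthest from the cortex median, WT 2 and WT 4, it was 0.89 (permutation adjusted p = 0.0088), without WT 4 alone 0.90 (adjusted p = 0.00609), and within Y-linked classes 0.93 (adjusted p = 0.0226).

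**Figure D5:**
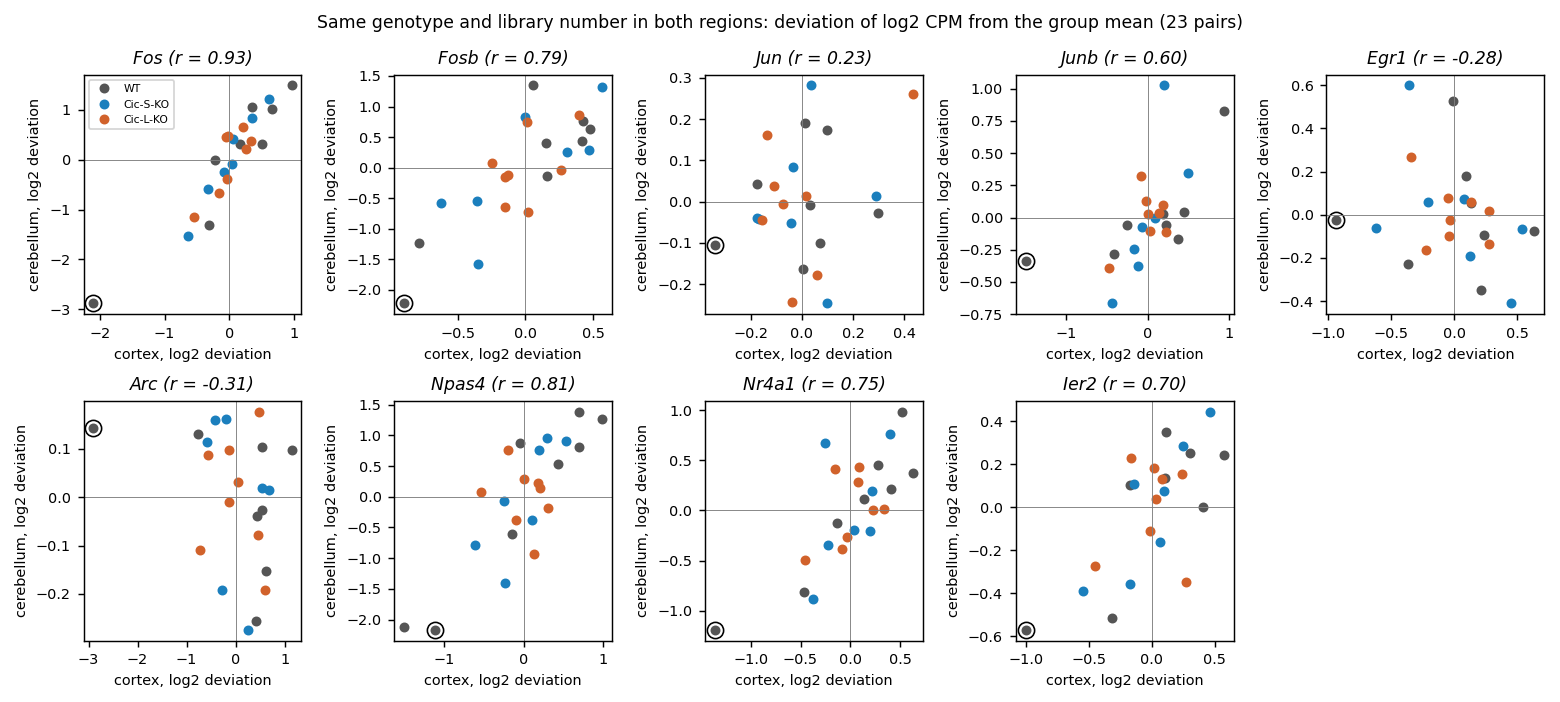
Deviation of log2 CPM from the group mean in cortex (horizontal axis) and in cerebellum (vertical axis) for the 9 early genes tested in both regions, one point per genotype and library number (23 pairs), coloured by genotype, with WT library number 4 ringed. The points of Fos lie along a line (r = 0.93), those of Egr1 (r = -0.28) and Arc (r = -0.31) do not.

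Besides Fos, 2 members passed in this test, Fosb (r = 0.79, permutation p = 0.00033, adjusted p = 0.0402; rho = 0.72, permutation p = 0.00054, adjusted p = 0.0668) and Nr4a1 (r = 0.75, permutation p = 0.00027, adjusted p = 0.0362; rho = 0.66, permutation p = 0.00175, adjusted p = 0.12). That makes 3 of 9. Both calls ended without WT library number 4, Fosb at 0.72 (permutation adjusted p = 0.118) and Nr4a1 at 0.65 (0.152), and without the 2 pairs farthest in cortex, Fosb at 0.67 (0.339, without WT 1 and 4) and Nr4a1 at 0.67 (0.192, without WT 4 and 8). So 1 of 9, Fos, passed without WT library 4, where 0.676% of all genes did. Npas4 (r = 0.81, permutation adjusted p = 0.0568), Ier2 (r = 0.70, 0.0686) and Junb (r = 0.60, 0.135) came near without passing. Jun gave 0.23 (0.821), Egr1 -0.28 (0.792) and Arc -0.31 (0.703).

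For Npas4, the 2 lowest WT libraries were the same in both regions: number 1 with 6.70 CPM in cortex and 0.599 in cerebellum, and number 4 with 8.80 and 0.576. Its correlation was 0.95 in WT (exact permutation p = 0.00166, n = 8), 0.79 in Cic-S-KO (exact p = 0.0333, n = 7) and -0.28 in Cic-L-KO (exact p = 0.487, n = 8). For Egr1 it was -0.022 in WT (exact permutation p = 0.959, n = 8), -0.54 in Cic-S-KO (exact p = 0.206, n = 7) and -0.36 in Cic-L-KO (exact p = 0.389, n = 8). The differences between these correlations were not tested.

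The genes nearest to the members were found by the correlation of each gene with the mean standardised deviation of the members over the 23 libraries of a region, a description with no test. Dusp1, a phosphatase that ends MAP kinase signalling, was first in both regions, with r = 0.94 in cortex and 0.93 in cerebellum. In cortex Arl4d (0.92), Egr4 (0.91), 1700016P03Rik (0.87), Sik1 (0.87), Zfp189 (0.86), Errfi1 (0.85), Tiparp (0.85), Gadd45b (0.84) and Apold1 (0.83) followed. In cerebellum these were Zfp146 (0.86), Nr4a2 (0.85), Tob1 (0.83), Uncx (0.82), Pnrc1 (0.81), Tsc1 (0.80), Amotl2 (0.79), D830025C05Rik (0.79) and Ddit4 (0.78). Of these, 5 cortex genes and 2 cerebellum genes were on the list of other rapid early genes described next. The same mean had a correlation of -0.33 with the log2 library total in cortex and -0.019 in cerebellum, -0.53 with summed microglia markers in cortex, and -0.50 with endothelial and 0.48 with Purkinje cell markers in cerebellum, whose part was not tested.

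Other rapid early genes, a list of 34 of which 28 were tested in each region, were described in the same way. Of the 28, 8 were correlated between cortex and cerebellum and all 8 positively (background 0.928%): Nr4a3 (r = 0.93), a nuclear receptor related to Nr4a1, Dusp1 (0.88), the clock gene Per1 (0.85), Trib1 (0.78), Plk3 (0.78), Fosl2 (0.77), Dusp6 (0.70) and Dusp5 (0.69), with permutation adjusted p-values from 0.00453 to 0.0496. The median r of the list was 0.56, beside 0.70 over the 9 members and 0.085 over all genes. Later activity genes had a median of 0.093, and 3 of 17 passed: Pcsk1 (0.82), Nfil3 (0.80) and Homer1 (0.80). With Fos inside a region, 5 of 28 other rapid early genes passed in cortex (Csrnp1, Dusp1, Egr4, Gadd45b, Sik1) and 3 in cerebellum (Dusp1, Fosl2, Nr4a2), and 0 of the 18 and 17 later genes.

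By genotype, these genes were mixed. In Cic-L-KO cortex 9 of 28 were lower and 3 higher, a share close to the 43.2% of all genes, with a median of -0.21 beside 0.011 over all genes. Egr4, a relative of Egr1, was lower (-0.90, adjusted p = 0.000111, edgeR), as were Ier3 (-0.48) and Fbxo33 (-0.26), while Maff, a small Maf factor, stood at 8.998 ± 1.24 CPM in Cic-L-KO and 2.10 ± 0.707 in WT (2.10, SE 0.182, adjusted p = 3.49e-10, edgeR) and Myc was 0.90 higher. In Cic-L-KO cerebellum, where 21.5% of all genes passed, 4 were lower and 2 higher, among them Egr4 (-0.81), Klf10 (-0.45) and Tiparp (-0.30) as lower and Maff (2.51) and Plk3 (0.40) as higher. In Cic-S-KO 0 of 28 passed in cortex in edgeR (6.53% of all genes), and 3 were higher in cerebellum (8.23% of all genes passed): Gadd45b (0.29), Egr3 (1.11) and Ier3 (0.30). Between the knockouts, 6 were higher in Cic-S-KO cortex and 3 lower (33.9% of all genes passed), and 5 and 2 in cerebellum (12.4%).

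Later activity genes are transcribed after the early factors. Of 18 tested in Cic-L-KO cortex 4 were higher and 7 lower, where 43.2% of all genes passed, with Acan (1.59), Sst (0.72), Cort (0.57) and Vgf (0.40) higher and Syt4 (-0.24) lower among the 5 with the smallest p. In Cic-S-KO cortex 1 was higher and 5 lower, where 6.53% of all genes passed, and those of smallest p were Bdnf (-0.41), Crem (-0.42), Cort (-0.38), Rasgrp1 (-0.21) and Syt4 (-0.18). In the cerebellum each knockout had 2 of 17 higher and 1 lower against WT, beside 8.23% (Cic-S-KO) or 21.5% (Cic-L-KO) of all genes.

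Factors and kinases upstream of the early gene promoters were counted in the same way. Of 20 tested, 7 were higher and 10 lower in Cic-L-KO cortex, where 43.2% of all genes passed, and 4 and 6 in Cic-L-KO cerebellum, where 21.5% did. In Cic-S-KO 2 were higher and 2 lower in cortex (6.53% of all genes passed), and 1 and 2 in cerebellum (8.23%). Camk4, a calcium-activated kinase of CREB, was lower in Cic-L-KO cortex (-0.79, adjusted p = 4.4e-14, edgeR) and cerebellum (-0.53), and also in Cic-S-KO (-0.21 and -0.44). Rps6ka2, a kinase below ERK, was higher in Cic-L-KO in both regions (0.66 and 0.51). Elk1, an SRF partner, was lower in Cic-L-KO cortex (-0.36), as was Camk2a (-0.53). Heat shock and hypoxia genes, which respond to stress of the tissue, had 1 higher and 7 lower of 12 in Cic-L-KO cortex, 0 and 3 in Cic-S-KO cortex, 2 and 2 in Cic-L-KO cerebellum and 0 in Cic-S-KO cerebellum, beside the same shares of all genes. Across regions 2 of those 12 were correlated (Hif3a and Hspa1b), all 12 had a positive r, and the list's median was 0.52. Their part in the early gene values was not tested.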

How the data were processed

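Total RNA from flash-frozen tissue was selected for polyadenylated transcripts, per the labels' protocols. The deposited values are raw counts, whole numbers of reads for each gene. STAR 2.7 and the build GRCm38.p6 are named in the submitters' processing notes, while the counting program, annotation and use of strand are not given in the sources used here. Of 50789 identifiers 50725 matched GENCODE M21 without the version and 64 did not. Lung samples (batch 1) were not used here. Of 154 pairs of replicates 0 were identical, and chi-square per degree of freedom was at least 4.04, above sampling noise.

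Each region was fitted with edgeR 4.0.16 in R 4.3.3 (filterByExpr on genotype, TMM, robust quasi-likelihood fit of 3 genotypes), and both regions together for contrasts between them. Benjamini-Hochberg adjusted p under 0.05 over all genes counted as a difference. Standard errors come from the F statistic and 95% intervals from the t distribution with its degrees of freedom. Correlations used deviations of log2 CPM (prior count 2) from group means, with 100000 two-sided permutations within genotype (exact within 1 genotype), numba 0.67.0. Alternatives were DESeq2 1.42.0, RLE scaling, no filter, a mean of 50 counts, a fit without robust weights, the compared genotypes only, a minimum absolute log2 fold change of 0.5, a replicate block, single libraries left out, a prior count of 0.5 and Spearman's rho. The edgeR fits of Cic-L-KO against WT and between regions were also run on simulated counts with known changes. The DESeq2 fits and the promoter search were not.

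The members and lists were chosen with earlier results of these data known. Named were all members, at most 5 genes per list and contrast with the smallest p among those called, the 10 nearest genes per region, and the markers. List genes named for a correlation, and the promoters shown, were chosen after their values were seen.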

Additional observations from a re-analysis of the deposited data

Results flagged for a closer look

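In 57 sets of values (a member in a brain group), 3 libraries lay apart from their group by Dixon's criterion on linear CPM, where chance gives about 1 in 20, or 2.85. Egr1 was 61.6 CPM in Cic-S-KO cerebellum library 3, with the next at 42.8. Jun was 82.0 CPM in Cic-L-KO cortex library 8, with the next at 63.3. Junb was 16.6 CPM in WT cerebellum library 2, with the next at 9.60.

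Jun was also the member whose Cic-L-KO effect differed between cortex and cerebellum, by 0.40 on the log2 scale (adjusted p = 0.0088, edgeR).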

How the results depend on the processing

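Of 2564 alternative values of single members, 2402 kept their direction and side of the threshold, 68 lost a call, 35 gained one and 59 changed sign. A member not called in either fit counts as kept, and the losses were uneven. Between the knockouts Jun lost its call in 17 alternatives and kept it in 6 in cerebellum, and 11 and 12 in cortex. Nr4a1 there lost it in 10 and kept it in 13 in cerebellum. Across regions Fosb and Nr4a1 each lost it in 7 and kept it in 2. Egr1 in Cic-L-KO against WT kept its call in all 25 in each region. The count in Cic-L-KO cortex was 5 in DESeq2 and in the non-robust fit, 7 without WT library number 4, and 3 to 7 with single libraries left out. With no filter 1 member was called in Cic-L-KO cerebellum and 1 between the knockouts there; an absolute log2 fold change of 0.5 left 1 in Cic-L-KO cerebellum and 0 for the Cic-L-KO effect between regions, which was 2 without WT library 4. With 1 library left out, the counts ran from 1 to 3 for Cic-L-KO cerebellum, for the knockouts there and for the Cic-L-KO effect, 4 to 6 for the knockouts in cortex, 8 to 9 for WT cortex against cerebellum, and stayed 0 in every Cic-S-KO comparison with WT. Covariation between regions called 1 (Fos) by Spearman's rho, without WT library 4, within Y-linked classes and without 2 pairs. In each genotype alone it called 0, but so few pairs limit how small the adjusted p can be. In Cic-S-KO alone Fos (r = 0.98) had the smallest exact permutation p that 7 pairs can give, 0.000198, and an adjusted p of 0.462. With Fos in cortex 0 remained without 2 libraries. Junb (r = 0.93) then had the smallest possible permutation p, 1e-05, and an adjusted p of 0.0566.

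The replicate number was also used as a block, and labels do not say what it marks. In fits of 1 region the block was the number, shared by the genotypes. It gave 1 call between the knockouts in cerebellum, and turned cortex Cic-S-KO Egr2 to 0.10 and Arc to 0.078. In the fit of both regions the block was genotype and number together. Such pairs correlated over genes at -0.0049 to 0.26, over 0.1 in 16 of 23. That block gave 2 calls for the Cic-L-KO effect, Jun (0.40, adjusted p = 0.00326, edgeR) and Junb (-0.58, adjusted p = 0.033). It turned the Junb Cic-S-KO effect to 0.046. Signs also turned near 0: cerebellum Cic-S-KO Jun was -0.00052 in DESeq2, -0.00052 with RLE, -0.0013 with no filter, -0.00061 at a mean of 50 counts and -0.015 without WT library 4, which also turned cortex Cic-S-KO Fos (-0.013) and Nr4a1 (-0.018) and cortex Cic-L-KO Egr2 (-0.092). Between regions Npas4 was -0.28 in Cic-L-KO alone and Jun -0.064 without 2 pairs. With 1 library left out, these estimates crossed 0: in cortex Cic-S-KO Fos -0.013 to 0.29, Egr1 -0.19 to 0.012, Egr2 -0.26 to 0.26, Arc -0.23 to 0.11 and Nr4a1 -0.018 to 0.20; in cortex Cic-L-KO Egr2 -0.092 to 0.43; in cerebellum Cic-S-KO Fosb -0.13 to 0.40 and Jun -0.048 to 0.039; in cerebellum Cic-L-KO Fos -0.34 to 0.073, Junb -0.14 to 0.068 and Npas4 -0.33 to 0.029; for the Cic-S-KO effect between regions Fos -0.41 to 0.086, Junb -0.23 to 0.16 and Npas4 -0.23 to 0.14; for the Cic-L-KO effect Fosb -0.090 to 0.30, Egr1 -0.17 to 0.036, Egr2 -1.07 to 0.085 and Nr4a1 -0.24 to 0.053; and Fos between WT regions -0.00646 to 0.40. The causes were not tested.

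Over all genes, Cic-S-KO cortex had 1108 calls, 732 with no filter and 654 with the compared genotypes only, and the Cic-S-KO effect 812, 446 with no filter and 518 without WT library 4. An absolute log2 fold change of 0.5 left 147 and 1931 in cortex (Cic-S-KO, Cic-L-KO), 1617 between the knockouts, 176, 505 and 423 in cerebellum, 189 and 1461 for the effects between regions and 8180 between WT regions. At 20440799 reads or more, Egr2 in cerebellum was the member that did not pass the filter on low counts, and Fosb and Npas4 had as few as 10 and 14 counts in a cerebellum library.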
